A study of Mus musculus with 29 samples.

Results

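Csf1r, Cx3cr1, Il34 and Cx3cl1 encode a pair of microglial receptors and a neuronal ligand of each. All 4 were found by symbol among the 22327 gene rows of the count table, and their counts were read in 29 libraries. Microglia are the macrophages of the brain parenchyma. CSF1R is the receptor tyrosine kinase that keeps them alive, and it is bound by IL34, which cortical neurons make, and by CSF1. CX3CR1 is a G-protein-coupled receptor for fractalkine, the product of Cx3cl1, a chemokine held on the neuronal membrane and shed from it by proteases. In these mice 1 Cx3cr1 allele also carries the tamoxifen-inducible Cre that turns on the ribosomal tag.

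The libraries hold RNA bound to GFP-tagged ribosomes (translating ribosome affinity purification, TRAP) from the cortex of mice aged 6 months. All 7 groups carried Cx3cr1CreErt2/+ and received 6 doses of 100 mg/kg tamoxifen, begun at 4 to 6 weeks. Groups with the construct Eef1a1LSL.NS3.eGFPL10a.iPKR/+, which joins the tag to an inducible form of the stress kinase PKR, were 5xFAD iPKR (n = 4, with the amyloid transgenes 5xFAD, VEGF and ASV), iPKR ASV (n = 5, VEGF and ASV) and iPKR vehicle (n = 4, VEGF and PEG:DMSO). Treatment ran for 4 weeks with VEGF at 1 µg/kg and ASV, an inhibitor of the NS3 protease, at 5 mg/kg. It began at 4 to 5 months in iPKR vehicle and iPKR ASV mice. In 5xFAD iPKR mice, and in the 5xFAD TRAP mice described next, it began at 5 months. The other groups carried Eef1a1LSL.eGFPL10a/+ by their sample labels. They were 5xFAD Eif2A (n = 3) and Eif2A (n = 4), both with Eif2s1A/A and the transgene Tg(Eif2s1), 5xFAD TRAP (n = 4, also given VEGF and ASV) and TRAP (n = 5, tamoxifen alone). In the series text the Eif2A genotypes are written without the tag. No group had 2 Cx3cr1 alleles free of the Cre, and the Cre also acts in macrophages of the brain borders, which express Cx3cr1.

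The genes lie on the mm10 genome, with positions from GENCODE M21. Csf1r (ENSMUSG00000024621.16) spans chr18:61100598-61132149 on the plus strand and Cx3cr1 (ENSMUSG00000052336.7) spans chr9:119901616-120069879 on the minus strand. Il34 (ENSMUSG00000031750.15) spans chr8:110741829-110805924 on the minus strand and Cx3cl1 (ENSMUSG00000031778.13) spans chr8:94772009-94782427 on the plus strand. Other annotated genes cover 15.1% of the exon bases of Csf1r, 31.2% of those of Il34, 2.00% of those of Cx3cr1 and none of those of Cx3cl1. How reads shared between genes were assigned is not given in the sources used here. Of protein-coding genes lying wholly inside another gene, 50 of 926 had a row in the table, against 13108 of 17260 with no overlap, so values of overlapped genes carry that uncertainty.

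Library totals ran from 1.662 to 31.998 M counts (median 6.049 M), and the labels put 20 libraries in batch 1 and 9 in batch 2. Microglia markers took 0.0372% to 0.952% of counts in the 13 libraries with iPKR and 1.92% to 2.96% in the 16 without it. Neuron markers took 0.529% to 3.75% with iPKR and 0.0614% to 0.431% without it, so the libraries with the construct held a lower share of the labelled cell type's marker RNA. P2ry12, Gpr34 and P2ry13 of the microglia markers were not analysed here. Within the iPKR libraries, iPKR ASV replicate 3 and 5xFAD iPKR replicates 1 and 2 stood apart, with neuron markers at 2.49%, 3.28% and 3.75% against 0.529% to 1.44% in the other 10. Y-linked counts went against the labelled sex in 8 libraries, which were Eif2A replicates 3 and 4, iPKR ASV replicates 1, 3, 4 and 5, and 5xFAD iPKR replicates 1 and 2.

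RefSeq promoter sequences of assembly GRCm38.p6 were matched for 2 of the 4 genes, and the 250 bases before the RefSeq start are shown, 5′ to 3′ on the gene's strand. That of Cx3cr1 is shown because this gene drives the Cre, and that of Cx3cl1 because 3 iPKR libraries stood far above the others in it. The Cx3cr1 stretch lies at chr9:120068297-120068546 (minus strand) and that of Cx3cl1 at chr8:94771930-94772179 (plus strand). These RefSeq starts differ from the starts of the GENCODE spans given above. The Cx3cr1 stretch lies wholly inside the GENCODE span of the gene, and the Cx3cl1 stretch crosses the start of its span. Sequence before the GENCODE start of Cx3cr1 was not examined. Capitals mark matches, on either strand, to GAGGAA, the core bound by the myeloid factor PU.1, whose other strand reads TTCCTC, to TATAAA, whose other strand reads TTTATA, and to the GC box GGGCGG, whose other strand reads CCGCCC.
Cx3cr1: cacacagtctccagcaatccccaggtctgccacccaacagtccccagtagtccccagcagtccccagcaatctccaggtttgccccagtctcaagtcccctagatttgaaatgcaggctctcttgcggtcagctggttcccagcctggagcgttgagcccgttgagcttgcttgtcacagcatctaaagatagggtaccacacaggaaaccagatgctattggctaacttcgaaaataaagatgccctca
Cx3cl1: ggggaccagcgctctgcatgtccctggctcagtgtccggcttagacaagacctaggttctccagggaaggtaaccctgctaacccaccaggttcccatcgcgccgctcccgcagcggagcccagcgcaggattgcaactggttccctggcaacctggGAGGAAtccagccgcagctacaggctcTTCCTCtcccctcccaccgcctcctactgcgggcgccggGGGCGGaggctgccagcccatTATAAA
The Cx3cr1 stretch held none of the 3 motifs. The Cx3cl1 stretch held 2 matches to GAGGAA or its reverse complement, 1 to TATAAA at its end and 1 to GGGCGG. Among 32851 promoter sequences of the same length, 23.3% held the first motif, 12.4% the second and 32.7% the third. A match is a description of the letters and not a binding site.

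Both receptors were lower and both ligands higher in libraries with the iPKR construct, at levels given as CPM, which are counts scaled by library size and TMM factor. Csf1r had 102.7, 188.7, 142.3 and 145.1 CPM in iPKR vehicle libraries, against 2030, 2164, 2326, 2392 and 2339 CPM in TRAP libraries. It had 726, 253.9, 660.4 and 547.8 CPM in 5xFAD iPKR libraries, against 2057, 2587, 2299 and 2480 CPM in 5xFAD TRAP libraries. No Csf1r value of either iPKR group reached the lowest value of its counterpart. By edgeR's quasi-likelihood test over 16074 genes, with Benjamini-Hochberg adjustment, Csf1r fell by 3.93 ± 0.29 on the log2 scale in iPKR vehicle against TRAP (SE, adjusted p = 6.406e-11). It fell by 2.25 ± 0.28 in 5xFAD iPKR against 5xFAD TRAP (adjusted p = 8.321e-07).

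Cx3cr1 showed the same direction with more spread. It had 0, 44.06, 27.96 and 34.49 CPM in iPKR vehicle libraries, against 720, 16.97, 662.1, 615.7 and 710.2 CPM in TRAP libraries. It had 119.1, 35.51, 138.4 and 142.9 CPM in 5xFAD iPKR libraries, against 566.3, 807.6, 696.8 and 657.2 CPM in 5xFAD TRAP libraries. The amyloid pair did not overlap, whereas TRAP replicate 2 lay inside the range of the iPKR vehicle libraries. Cx3cr1 fell by 4.41 ± 0.79 on the log2 scale in iPKR vehicle against TRAP (adjusted p = 3.387e-05, edgeR) and by 2.87 ± 0.78 in 5xFAD iPKR against 5xFAD TRAP (adjusted p = 0.003438). Without TRAP replicate 2 and iPKR vehicle replicate 1 the first value was -4.39 ± 0.45. Leaving out iPKR vehicle replicate 2 alone gave -5.32.

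Il34 and Cx3cl1 ran the other way. Il34 had 47.15, 46.31, 78.63 and 67.98 CPM in iPKR vehicle libraries, against 11.09, 4.791, 10.72, 9.867 and 19.04 CPM in TRAP libraries. It had 25.35, 26.04, 60.96 and 68.74 CPM in 5xFAD iPKR libraries, against 4.338, 7.671, 12.69 and 16.82 CPM in 5xFAD TRAP libraries. Neither pair overlapped. Il34 rose 4.42-fold in iPKR vehicle against TRAP (log2 2.15 ± 0.28, adjusted p = 3.05e-07) and 4.44-fold in 5xFAD iPKR against 5xFAD TRAP (log2 2.15 ± 0.32, adjusted p = 4.808e-06).

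Cx3cl1 rose with the construct too, and it split the 5xFAD iPKR libraries. It had 315.8, 337.2, 410.2 and 536.1 CPM in iPKR vehicle libraries, against 59.56, 53.89, 68.48, 66.05 and 90.39 CPM in TRAP libraries. It had 2310, 2306, 295.3 and 281.6 CPM in 5xFAD iPKR libraries, against 153.5, 163.8, 90.66 and 71 CPM in 5xFAD TRAP libraries. Neither pair overlapped, and the 2 highest values belonged to replicates 1 and 2, called neuron-rich here with iPKR ASV replicate 3. That name rests on the share of all neuron markers together, and the marker Rbfox3 alone was not higher. Astrocyte markers were high in the same libraries. They took 0.311% of counts in iPKR ASV replicate 3 and 0.384% and 0.562% in 5xFAD iPKR replicates 1 and 2. The remaining iPKR libraries had 0.135% to 0.215%, so the name does not mark a trait of neuron markers alone. Rbfox3 had 185.9 and 212.5 CPM in 5xFAD iPKR replicates 1 and 2, against 243.8 and 224.3 CPM in replicates 3 and 4. It had 230.1 CPM in iPKR ASV replicate 3, against 175.5 to 259.1 CPM in the others of that group. Whether these libraries held more neuronal RNA as a whole was not tested. Cx3cl1 rose 7.52-fold in iPKR vehicle against TRAP (log2 2.91 ± 0.48, adjusted p = 1.151e-05) and 8.51-fold in 5xFAD iPKR against 5xFAD TRAP (log2 3.09 ± 0.53, adjusted p = 2.983e-05). The second value was 2.41 on the log2 scale without 5xFAD iPKR replicate 2, and 1.22 without the 3 neuron-rich libraries (adjusted p = 0.005161).

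The iPKR vehicle mice had VEGF and PEG:DMSO and the TRAP mice neither, which cannot be told apart from the construct, while both amyloid groups had VEGF and ASV. The 8 calls stand beside a background in which 54.1% of the 16074 genes passed the threshold of 0.05 in iPKR vehicle against TRAP and 47.9% in 5xFAD iPKR against 5xFAD TRAP. All 10 microglia markers tested fell and all 11 neuron markers tested rose in both comparisons. The median log2 change of the microglia markers was -4.48 in iPKR vehicle against TRAP and -2.90 in 5xFAD iPKR against 5xFAD TRAP. That of the neuron markers was 2.68 and 2.38 in the same comparisons. The rise was not limited to neuron markers. Of 9 astrocyte markers 7 rose in each comparison and 2 fell in the first (medians 2.32 and 2.60). Of 10 oligodendrocyte markers 7 and 10 rose (medians 1.785 and 1.95). Of 10 endothelial markers 4 rose and 1 fell in each (medians 1.45 and 2.46). Of 9 border macrophage markers 8 and 3 fell. The nuclear RNA Malat1 took 0.0704% to 0.146% of counts in iPKR vehicle and 0.00509% to 0.0205% in TRAP. It took 0.00758% to 0.0784% in 5xFAD iPKR and 0.00203% to 0.0173% in 5xFAD TRAP. How far these levels account for the change of the 4 genes was not tested. In RNA pulled down with tagged ribosomes, fewer cells, less RNA per cell and more untagged RNA carried along cannot be told apart. Within batch 1 alone the iPKR vehicle changes were -3.94, -4.40, 2.29 and 2.42 for Csf1r, Cx3cr1, Il34 and Cx3cl1, while batch 2 held 1 TRAP library and gave no test. The 5xFAD iPKR changes for the same genes were -2.42, -3.30, 2.12 and 3.67 in batch 1 alone and -2.06, -2.42, 2.26 and 1.76 in batch 2 alone.

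**Figure D1:**
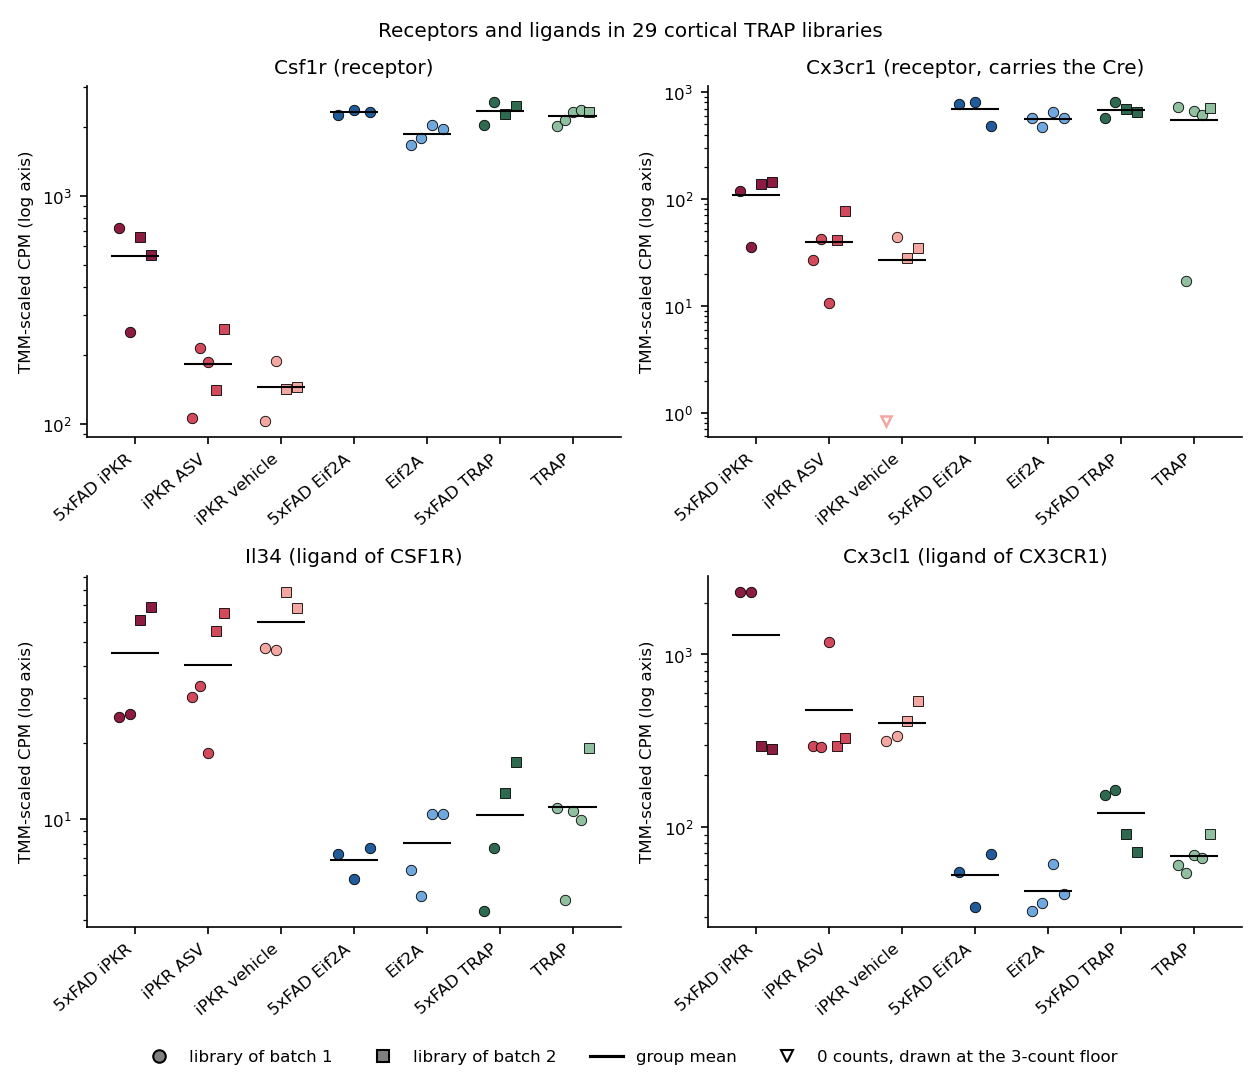
TMM-scaled CPM (log axis) of Csf1r, Cx3cr1, Il34 and Cx3cl1 in each library by group, with circles for batch 1, squares for batch 2 and a bar at the group mean. The open triangle is the iPKR vehicle library with 0 Cx3cr1 counts, drawn at the value of 3 counts. The receptors are low and the ligands high in the 3 iPKR groups, and TRAP replicate 2 lies at 16.97 CPM in the Cx3cr1 panel.

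Over the 7 groups, Csf1r averaged 547 ± 208.8 CPM in 5xFAD iPKR (SD, n = 4), 182.3 ± 61.1 in iPKR ASV (n = 5), 144.7 ± 35.15 in iPKR vehicle (n = 4), 2326 ± 54.54 in 5xFAD Eif2A (n = 3), 1872 ± 170.7 in Eif2A (n = 4), 2356 ± 231.9 in 5xFAD TRAP (n = 4) and 2250 ± 149.7 in TRAP (n = 5). From high to low the order was 5xFAD TRAP, 5xFAD Eif2A, TRAP, Eif2A, 5xFAD iPKR, iPKR ASV and iPKR vehicle, and among neighbours in it only Eif2A and 5xFAD iPKR did not overlap. Cx3cr1 averaged 109 ± 50.05 CPM in 5xFAD iPKR, 39.39 ± 24.33 in iPKR ASV, 26.63 ± 18.94 in iPKR vehicle, 688.1 ± 175.9 in 5xFAD Eif2A, 565.2 ± 73.71 in Eif2A, 682 ± 99.99 in 5xFAD TRAP and 545 ± 298.1 in TRAP. Its order was 5xFAD Eif2A, 5xFAD TRAP, Eif2A, TRAP, 5xFAD iPKR, iPKR ASV and iPKR vehicle, with overlap between all neighbours.

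Il34 averaged 45.27 ± 22.83 CPM in 5xFAD iPKR, 40.39 ± 19.11 in iPKR ASV, 60.02 ± 15.95 in iPKR vehicle, 6.911 ± 0.9882 in 5xFAD Eif2A, 8.039 ± 2.831 in Eif2A, 10.38 ± 5.497 in 5xFAD TRAP and 11.1 ± 5.112 in TRAP. From low to high the order was 5xFAD Eif2A, Eif2A, 5xFAD TRAP, TRAP, iPKR ASV, 5xFAD iPKR and iPKR vehicle, and neighbours overlapped throughout. Cx3cl1 averaged 1298 ± 1166 CPM in 5xFAD iPKR, 478.1 ± 393.2 in iPKR ASV, 399.8 ± 99.43 in iPKR vehicle, 52.7 ± 17.75 in 5xFAD Eif2A, 42.56 ± 12.81 in Eif2A, 119.7 ± 45.83 in 5xFAD TRAP and 67.67 ± 13.92 in TRAP. From high to low the order was 5xFAD iPKR, iPKR ASV, iPKR vehicle, 5xFAD TRAP, TRAP, 5xFAD Eif2A and Eif2A, and among neighbours only iPKR vehicle and 5xFAD TRAP did not overlap. The large SD in 5xFAD iPKR and iPKR ASV came from the 3 neuron-rich libraries, at 1181 to 2310 CPM, against 281.6 to 329.3 CPM in the others of those groups.

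To compare the genes with each other, CPM were divided by the kilobases of annotated exon. In the 13 libraries with iPKR the medians were 32.69 CPM per kb for Csf1r, 9.092 for Cx3cr1, 83.79 for Cx3cl1 and 24.07 for Il34. In the 16 libraries without it they were 395.7 for Csf1r, 144.9 for Cx3cr1, 16.18 for Cx3cl1 and 4.476 for Il34. By these medians Csf1r was the highest of the 4 per length without the construct, and Cx3cl1 the highest with it. In 5xFAD iPKR replicates 3 and 4, however, Csf1r (114.4 and 94.88 CPM per kb) stood above Cx3cl1 (75.15 and 71.65).

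A ratio of 2 genes within a library does not depend on how the library is scaled, and the ratios below are descriptions of counts with no test. Csf1r had 1.81 to 28.63 counts per Il34 count in the 13 iPKR libraries (median 4.076), against 122.8 to 474.2 in the other 16 (median 254.4). Per kilobase, Csf1r stood at 0.6132 to 9.616 times Il34 in the iPKR libraries and at 41.1 to 151.4 times in the others. Cx3cr1 had 0 to 0.5074 counts per Cx3cl1 count in the iPKR libraries (median 0.0905), against 3.689 to 23.68 in 15 of the others (median 9.669). The remaining library, TRAP replicate 2, had 0.3148 and lay among the iPKR libraries in this ratio, while its 451.7 counts of Csf1r per Il34 count lay among the libraries without iPKR.

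The receptors also separated from each other in a few libraries. Cx3cr1 had 0.1961 to 0.3546 counts per Csf1r count in 24 libraries (median 0.28), which came from all 7 groups. The other 5 were lower. The ratio was 0.007841 in TRAP replicate 2, with 170 Cx3cr1 counts beside 21680 Csf1r counts. Of 2903523 counts, iPKR vehicle replicate 1 had none for Cx3cr1 and 368 for Csf1r. A limit of 3 counts puts its ratio at no more than 0.008152, at least 24.1-fold lower than the lowest of the other iPKR vehicle libraries (0.1965), as far as counting error goes. The neuron-rich libraries had 0.05669 (iPKR ASV replicate 3), 0.1641 and 0.1399 (5xFAD iPKR replicates 1 and 2).

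TRAP replicate 2 did not stand apart in Csf1r, at 2164 CPM, or in its microglia marker share, at 2.11%, while its border macrophage markers took 0.0178% of counts against 0.0335% to 0.0571% in the other TRAP libraries. Whether the Cx3cr1 allele, the tag or the sample differed in these 2 libraries was not tested.

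**Figure D2:**
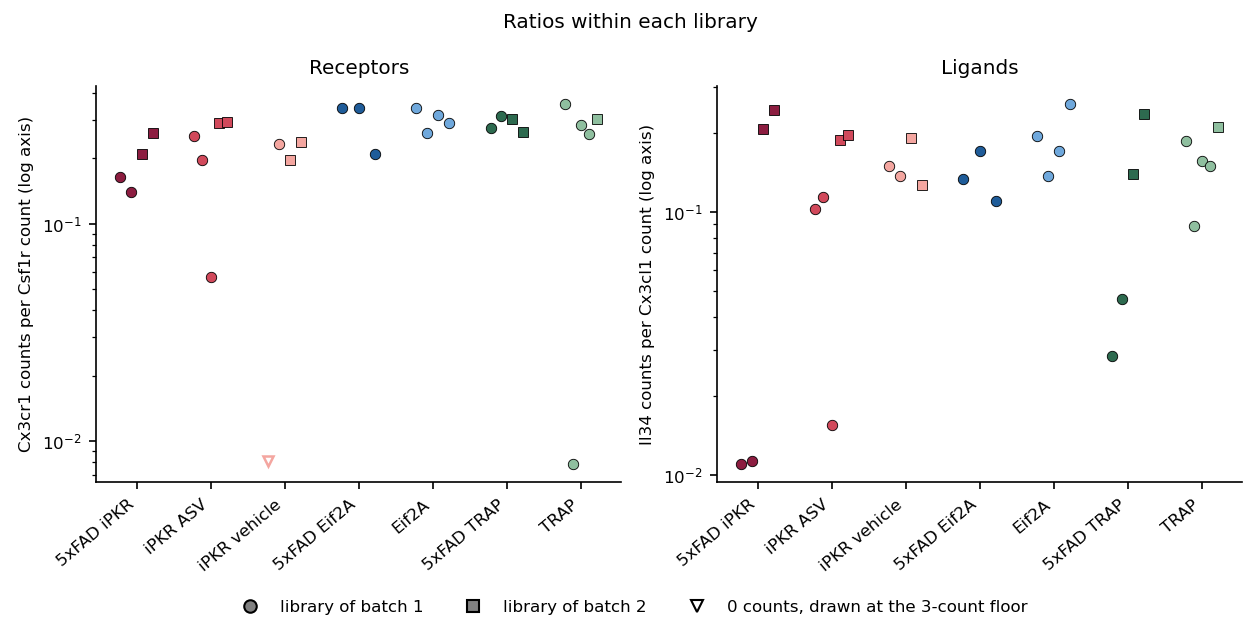
Counts of Cx3cr1 per count of Csf1r, and of Il34 per count of Cx3cl1, in each library by group. Most libraries share a narrow band of the receptor ratio (0.1961 to 0.3546 in 24 of 29), TRAP replicate 2 and iPKR vehicle replicate 1 lie far under it, and the ligand ratio is lowest in 5xFAD iPKR replicates 1 and 2 and iPKR ASV replicate 3.

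The 2 neuronal ligands did not keep a fixed ratio either. Il34 had 0.01098 and 0.01129 counts per Cx3cl1 count in 5xFAD iPKR replicates 1 and 2 and 0.01547 in iPKR ASV replicate 3, against 0.1024 to 0.2441 in the other 10 iPKR libraries. It had 0.02826 and 0.04682 in 5xFAD TRAP replicates 1 and 2, against 0.14 and 0.2368 in replicates 3 and 4. In each of these 5 libraries Cx3cl1 was higher, and Il34 lower, than in the other libraries of the group.

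Other measures were also low or high in these 5 libraries. The nuclear RNA Malat1 took 0.0269%, 0.0090% and 0.0076% of counts in iPKR ASV replicate 3 and 5xFAD iPKR replicates 1 and 2, against 0.0691% to 0.218% in the other iPKR libraries. In 5xFAD TRAP it took 0.00203% and 0.00317% in replicates 1 and 2, against 0.0173% and 0.0149% in replicates 3 and 4. Mitochondrially encoded RNA took 0.0275% to 0.0373% in the 3 neuron-rich libraries, against 0.0743% to 0.712% in the other iPKR libraries. Neuron markers together took 0.431% and 0.252% in 5xFAD TRAP replicates 1 and 2, against 0.107% and 0.115% in replicates 3 and 4. The neuron marker Rbfox3 alone did not follow, at 53.73 and 42.74 CPM against 53.62 and 54.65 CPM in the same libraries. A low Malat1 share did not always go with a low ligand ratio. In 5xFAD Eif2A replicates 1 and 2 Malat1 took 0.00166% and 0.00339% while the ratio was 0.1333 and 0.1701, and in TRAP replicate 3 it took 0.00509% with a ratio of 0.1565. The part of these measures in the ligand ratio was not tested. The 5 libraries with the low ligand ratio were all from batch 1. In 5xFAD iPKR and in 5xFAD TRAP the split falls on the batch, with replicates 1 and 2 in batch 1 and replicates 3 and 4 in batch 2. Batch and other differences between these replicates cannot be told apart there. Other batch 1 libraries had higher ratios, among them iPKR ASV replicates 1 and 2 at 0.1024 and 0.1144. The part of batch was not tested.

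**Figure D3:**
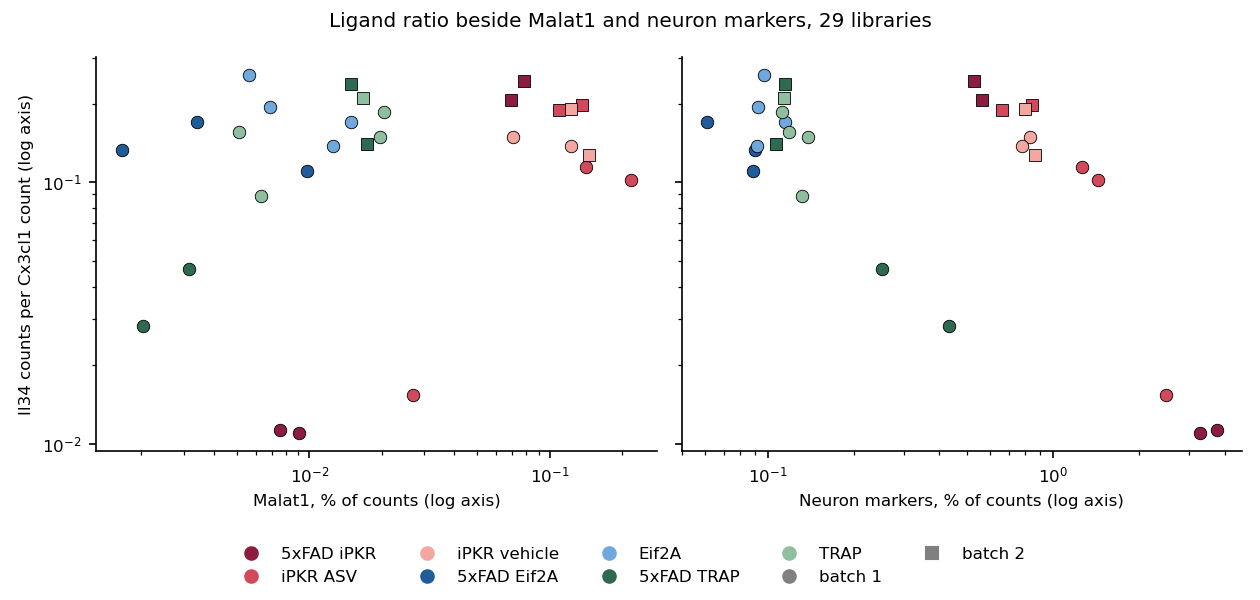
Counts of Il34 per count of Cx3cl1 in the 29 libraries against the percentage of counts in Malat1 and in neuron markers. The 3 neuron-rich iPKR libraries, with ratios of 0.01098 to 0.01547, have the highest neuron marker shares, and the 5xFAD TRAP libraries at 0.02826 and 0.04682 have low Malat1 shares.

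The 5xFAD transgenes were compared with their absence on 3 backgrounds. Drugs and doses were matched on the iPKR background, where both groups had VEGF and ASV, and on the Eif2A background, where neither did. Treatment began at 5 months in 5xFAD iPKR and at 4 to 5 months in iPKR ASV. The part of this difference in start was not tested. On the TRAP background 5xFAD TRAP mice had VEGF and ASV and TRAP mice did not, so the transgenes and the treatment cannot be told apart there. Neither receptor nor ligand passed the test on the TRAP background, where 0.79% of all genes did, or on the Eif2A background, where 3.1% did. The 5xFAD TRAP and TRAP values of Csf1r given above overlapped, with a log2 difference of 0.09 ± 0.25 and a 95% interval of -0.44 to 0.62. Cx3cr1 differed by 0.27 ± 0.67 and by -0.06 without TRAP replicate 2. Il34 differed by -0.50 ± 0.30. Cx3cl1 differed by 1.00 ± 0.46 (adjusted p = 0.451), passed in a fit of these 2 groups alone (adjusted p = 0.04203), and was higher in the 2 batch 1 libraries of 5xFAD TRAP described above.

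On the Eif2A background, Csf1r had 2270, 2379 and 2328 CPM in 5xFAD Eif2A libraries, against 1678, 1788, 2055 and 1968 CPM in Eif2A libraries. These did not overlap, but the difference of 0.35 ± 0.28 on the log2 scale (95% interval -0.23 to 0.92, adjusted p = 0.6364) did not pass. Cx3cr1 had 772.7, 805.7 and 485.9 CPM in 5xFAD Eif2A libraries, against 573.5, 468.7, 648.2 and 570.6 CPM in Eif2A libraries, a log2 difference of 0.31 ± 0.74. The groups overlapped. Il34 differed by -0.26 ± 0.32 and Cx3cl1 by 0.33 ± 0.52.

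On the iPKR background, where 1.72% of all genes passed, Csf1r was the 1 gene of the 4 that did. The 5xFAD iPKR values above stood against 106, 215.5, 187, 141.3 and 261.7 CPM in iPKR ASV libraries. Only 5xFAD iPKR replicate 2, at 253.9 CPM, lay within the iPKR ASV range. Csf1r rose 2.81-fold (log2 1.49 ± 0.25, 95% interval 0.96 to 2.02, adjusted p = 0.0009364). The log2 value was 1.48 within batch 1 (adjusted p = 0.03212), 1.45 within batch 2 (adjusted p = 0.1262) and 1.22 in a fit of the 2 groups alone (adjusted p = 0.451). Without the 3 neuron-rich libraries it was 1.66 (adjusted p = 0.000176).

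Microglia markers moved beside it. They took 0.0853% to 0.952% of counts in 5xFAD iPKR libraries and 0.0372% to 0.514% in iPKR ASV libraries, and 2 of 10 rose, with a median log2 difference of 1.18. The part of this in the Csf1r rise was not tested. Cx3cr1 had 119.1, 35.51, 138.4 and 142.9 CPM in 5xFAD iPKR libraries, against 26.73, 42.27, 10.6, 40.96 and 76.38 CPM in iPKR ASV libraries, a log2 difference of 1.32 ± 0.70 (adjusted p = 0.4286). Il34 differed by 0.05 ± 0.27, with overlapping values. Cx3cl1 differed by 1.29 ± 0.45 (adjusted p = 0.1659), by 2.06 within batch 1 (adjusted p = 0.01439), by -0.30 within batch 2 and by -0.12 without the 3 neuron-rich libraries. Without iPKR ASV replicate 3 it was 1.84 (adjusted p = 0.03637).

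The difference between backgrounds was tested itself. The 5xFAD difference of Csf1r was larger by 1.40 ± 0.36 on the iPKR than on the TRAP background, which did not pass over all genes (adjusted p = 0.2832). It passed at 1.60 without the 3 neuron-rich libraries (adjusted p = 0.01131), at 1.76 with sex read from Y-linked counts (adjusted p = 0.03835), at 1.67 without 5xFAD iPKR replicate 2 (adjusted p = 0.0184) and at 1.43 with DESeq2 (adjusted p = 0.002118). This value also holds the treatment that differed on the TRAP background. The 5xFAD comparisons that enter it share no library, and 0.0373% of all genes passed it. None of the 4 genes passed the same test between the Eif2A and TRAP backgrounds, where 0.00622% of genes did.

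**Figure D4:**
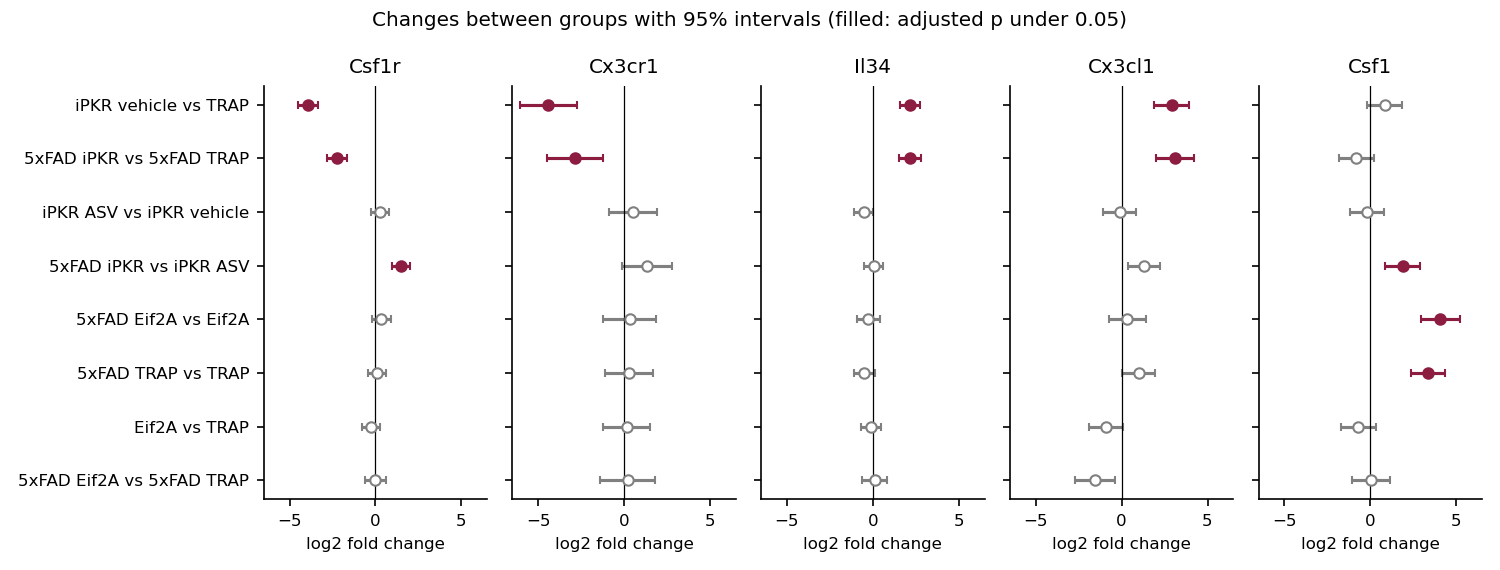
Log2 fold changes of Csf1r, Cx3cr1, Il34, Cx3cl1 and Csf1 in 8 comparisons with 95% intervals, filled where the adjusted p was under 0.05 (edgeR). Receptors fell and ligands rose in the comparisons of iPKR with no iPKR, and Csf1 rose in the 3 comparisons of 5xFAD with its absence.

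Csf1, which encodes the other ligand of CSF1R (ENSMUSG00000014599.10, chr3:107741048-107760469, minus strand), rose with 5xFAD where Il34 did not pass. It had 111.1, 156.2, 85.48 and 66.56 CPM in 5xFAD TRAP libraries, against 12.85, 1.996, 14.57, 14.86 and 11.15 CPM in TRAP libraries. It had 139.9, 118.6 and 99.63 CPM in 5xFAD Eif2A libraries, against 8.103, 7.724, 4.698 and 8.656 CPM in Eif2A libraries. The groups were far from overlapping on both backgrounds. Csf1 rose 10.1-fold on the TRAP background (log2 3.34 ± 0.48, adjusted p = 0.0001509) and 16.9-fold on the Eif2A background (log2 4.08 ± 0.54, adjusted p = 2.926e-05). The difference between these rises, 1 of which includes VEGF and ASV, was 0.74 ± 0.68 (95% interval -0.69 to 2.16, adjusted p = 1).

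On the iPKR background Csf1 had 67.61, 39.66, 73.27 and 61.34 CPM in 5xFAD iPKR libraries, against 17.96, 36.61, 14.73, 10.66 and 4.523 CPM in iPKR ASV libraries. The values did not overlap, and Csf1 rose 3.67-fold (log2 1.88 ± 0.48, adjusted p = 0.03934). This call was lost without any 1 of 7 of the 9 libraries (log2 1.49 to 1.90, adjusted p = 0.06362 to 0.1163) and held without iPKR ASV replicate 2 or 5xFAD iPKR replicate 2. It was 1.10 within batch 1 (adjusted p = 0.2666) and 3.38 within batch 2 (adjusted p = 0.0226), and 2.26 in a fit of the 2 groups alone (adjusted p = 0.3865). The 5xFAD difference of Csf1 on iPKR was lower by 1.46 ± 0.68 than on TRAP, which did not pass (adjusted p = 0.7229).

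Set against Il34 per kilobase, Csf1 stood at 0.331 to 0.9892 times Il34 in 5xFAD iPKR libraries, 0.02586 to 0.4066 times in iPKR ASV libraries and 0.08211 to 0.1329 times in iPKR vehicle libraries. It stood at 4.83 to 7.599 times in 5xFAD Eif2A libraries and 0.1669 to 0.577 times in Eif2A libraries. In 5xFAD TRAP libraries it was 1.468 to 9.502 times Il34, and in TRAP libraries 0.1546 to 0.5586 times. Per kilobase, Csf1 was the higher of the 2 CSF1R ligand transcripts in all 7 libraries of 5xFAD TRAP and 5xFAD Eif2A, and Il34 in the other 22.

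**Figure D5:**
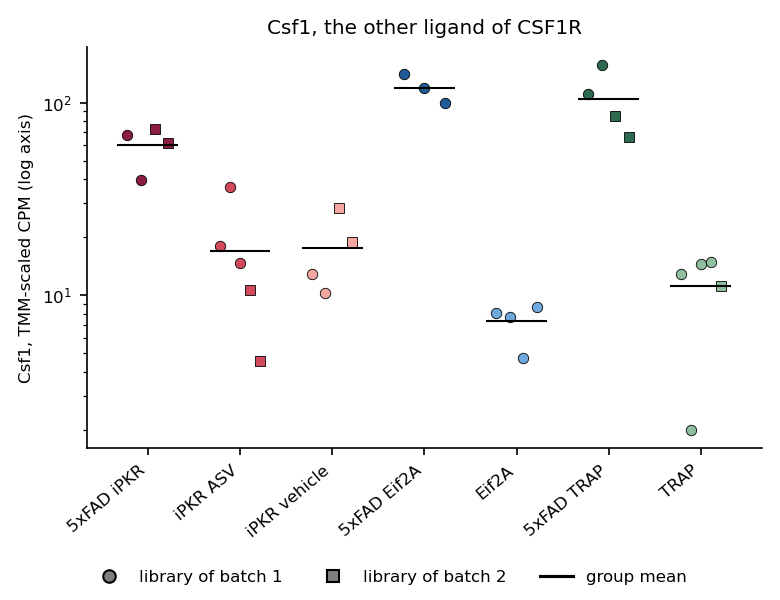
TMM-scaled CPM of Csf1 in each library by group, with a bar at the group mean. All 5xFAD libraries lie above all libraries without the transgenes, at 39.66 CPM or more against at most 36.61 CPM.

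None of the 4 genes passed the test for the Eif2s1 genotype. In Eif2A against TRAP no gene of the 16074 passed by edgeR (0%), with 912 at an unadjusted p under 0.05 41 passing by DESeq2 and 272 passing by edgeR in a fit of the 4 groups without iPKR. The log2 differences there were -0.27 ± 0.25 for Csf1r (95% interval -0.79 to 0.24), 0.15 ± 0.66 for Cx3cr1, -0.13 ± 0.28 for Il34 and -0.90 ± 0.47 for Cx3cl1. In 5xFAD Eif2A against 5xFAD TRAP, where 0.168% of genes passed, they were -0.02 ± 0.29, 0.20 ± 0.77, 0.12 ± 0.35 and -1.57 ± 0.56 for the same genes. Cx3cl1 had 54.71, 34.03 and 69.36 CPM in 5xFAD Eif2A libraries, all under the 71 to 163.8 CPM of 5xFAD TRAP libraries, and the difference did not pass over all libraries (adjusted p = 0.2912). It passed in the 4 groups without iPKR (log2 -1.28, adjusted p = 0.03734) and in these 2 groups alone (log2 -1.68, adjusted p = 0.00334). Neuron markers took 0.0614% to 0.0903% of counts in 5xFAD Eif2A and 0.107% to 0.431% in 5xFAD TRAP, and their part in this was not tested. The 5xFAD Eif2A mice had no ASV or VEGF and the 5xFAD TRAP mice had both, which cannot be told apart from the genotype. All 5xFAD Eif2A libraries were from batch 1, and within that batch the log2 difference of Cx3cl1 was -1.70 (adjusted p = 0.129).

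ASV against vehicle moved none of the 4 past the threshold either, with 0.423% of all genes passing. The log2 differences in iPKR ASV against iPKR vehicle were 0.28 ± 0.25 for Csf1r (95% interval -0.24 to 0.80), 0.50 ± 0.67 for Cx3cr1, -0.54 ± 0.26 for Il34 (95% interval -1.09 to 0.01, adjusted p = 0.3017) and -0.11 ± 0.46 for Cx3cl1. The unadjusted p of Il34 by the edgeR test was 0.04852, as the intervals are somewhat wider than the test. Il34 had 30.23, 33.4, 18.26, 55.21 and 64.87 CPM in iPKR ASV libraries, overlapping the 46.31 to 78.63 CPM of iPKR vehicle libraries. Cx3cl1 had 295.3, 292, 1181, 293 and 329.3 CPM in iPKR ASV libraries, of which 4 lay between 292 and 329.3 CPM.

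Genes of the 2 pathways were listed as 14 around CSF1R and 10 around CX3CR1, of which 12 and 9 were tested. In iPKR vehicle against TRAP, 7 CSF1R pathway genes fell and 1 rose (median log2 -2.63), and 8 CX3C pathway genes fell (median -1.38), beside a median of 0.17 over all genes, of which 28.6% rose and 25.4% fell. Of the genes that fell, the G-protein subunit Gnb1 (-0.44 ± 0.19, adjusted p = 0.0483) lost its call without TRAP replicate 2, 4 or 5 or iPKR vehicle replicate 1, 2 or 4 (-0.46 to -0.39), and in batch 1 alone. Those that fell include Plcg2, a phospholipase downstream of the receptor (-4.46), Inpp5d, the lipid phosphatase SHIP1 (-4.30), and Arrb2, beta-arrestin (-3.34). The G-protein subunit Gnai2 fell by 3.21. Cebpa, a myeloid transcription factor, fell by 3.74. In 5xFAD iPKR against 5xFAD TRAP, 9 CSF1R pathway genes fell and 1 rose (median -1.96), and 8 CX3C pathway genes fell (median -1.31), beside 0.21 over all genes, of which 25% rose and 23% fell. Of these calls 3 were fragile. Pik3r1, a subunit of PI3-kinase (-0.55 ± 0.23, adjusted p = 0.0481), no longer passed when a library was left out (5xFAD TRAP replicate 3 and 5xFAD iPKR replicate 4 excepted), with DESeq2, and without the 3 neuron-rich libraries (-0.37). The adaptor Shc1 (-1.15 ± 0.43, adjusted p = 0.02761) lost it without 5xFAD TRAP replicate 2 (-1.01) or 5xFAD iPKR replicate 1 (-0.88) or 2 (-0.67), and was -0.24 without the 3 neuron-rich libraries. Gnb1 (-0.61 ± 0.20, adjusted p = 0.01254) lost it without 5xFAD TRAP replicate 1 (-0.51), in either batch alone (-0.71 and -0.47) and without the 3 neuron-rich libraries (-0.55).

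Those named by the smallest p there were the adaptor Grb2 (-1.72), Plcg2 (-2.20) and Inpp5d (-2.25), and Arrb2 (-2.50), Gnai2 (-2.46) and Gnai3 (-1.31). The gene that rose in both was Ptprz1, a receptor phosphatase of glia and neurons that binds IL34, at 1.51 ± 0.56 (adjusted p = 0.02387) and 3.32 ± 0.65 (adjusted p = 0.0001377). The first of these calls was lost without TRAP replicate 1 or 4 or iPKR vehicle replicate 1 or 4, at 0.98 to 1.48, and in batch 1 alone, at 0.85. The proteases Adam10 and Adam17, which shed fractalkine, fell by 1.38 each in iPKR vehicle against TRAP, and by 0.83 and 1.10 in 5xFAD iPKR against 5xFAD TRAP, unlike their substrate's transcript. The second pair of calls was lost in batch 2 alone (-0.70 and -0.58).

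With 5xFAD fewer of these genes moved. On the TRAP background Csf1 alone rose (medians -0.06 for the CSF1R list and 0.08 for the CX3C list, against -0.06 over all genes, of which 0.709% rose). On the Eif2A background Csf1 and Itgb3, an integrin subunit that binds fractalkine, passed (medians 0.07 and 0.13, against -0.06 over all genes, of which 2.08% rose). The call of Itgb3 (1.68 ± 0.48, adjusted p = 0.04944) was lost when any library of these 2 groups was left out, at 1.55 to 1.93. Its log2 difference on the TRAP background was 1.71 ± 0.44 (adjusted p = 0.06564), and the difference between the 2 values, -0.03, did not pass (adjusted p = 1). On the iPKR background Csf1, Plcg2 (1.37 ± 0.29, adjusted p = 0.009172) and Ctss, a protease that cleaves fractalkine (1.56 ± 0.39, adjusted p = 0.03181), rose, with medians of 0.68 and 0.59 against 0.00 over all genes, of which 1.54% rose. Plcg2 was 1.01 without 5xFAD iPKR replicate 4, and Ctss was 1.36 to 1.51 without iPKR ASV replicate 1 or 4 or 5xFAD iPKR replicate 1, 3 or 4, and neither call held there. Within batch 1 and within batch 2 Plcg2 was 1.16 and 1.57 and Ctss 1.14 and 1.79, and neither passed in a batch alone. No gene of either list passed in Eif2A against TRAP, 5xFAD Eif2A against 5xFAD TRAP, or iPKR ASV against iPKR vehicle.

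The genes most like each of the 4 in pattern were those with the smallest SD of the log2 ratio to it over the 29 libraries, among 11015 candidates. For Csf1r these included Ptgs1 (SD 0.30), Itgam (0.31) and Lgmn (0.32), where the median over all candidates was 1.83. For Cx3cr1 the nearest were much farther and included Il6ra and Tor4a at 1.18, Cd180 at 1.27 and Lag3 at 1.30, where the median over candidates was 2.75. TRAP replicate 2 and iPKR vehicle replicate 1, with little or no Cx3cr1, enter these values, and their part was not tested. For Il34 they were Grik5 (0.43), Cbarp (0.44), Ntsr2 (0.45), Vstm2l (0.45) and Tppp3 (0.46), and for Cx3cl1 Clstn3 (0.33), Slc12a5 (0.37), Aplp1 (0.37), Chgb (0.39) and Tmem59l (0.39). The lists of the 2 ligands shared no gene. Within the 16 libraries without iPKR the nearest were Tnfrsf1a (0.10) for Csf1r, Ighmbp2 (0.67) for Cx3cr1, Kbtbd11 (0.36) for Il34 and Aplp1 (0.30) for Cx3cl1. These 16 include TRAP replicate 2, and the log2 CPM of Cx3cr1 itself had an SD of 1.33 there, against 0.17 for Csf1r. Within the 13 with iPKR they were Tor4a (1.06) for Cx3cr1, Mvb12b (0.21) for Il34 and Aplp1 (0.22) for Cx3cl1. The libraries share these genes' depth and cell makeup, so these likenesses are descriptions.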

How the data were processed

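GFP-bound RNA from mouse cortex was made into libraries (SMART-Seq mRNA LP) as described per the labels. The submitters' processing notes name Trim Galore, HISAT2 2.2.1, featureCounts 2.0.3 and mm10; strand and multiple-match settings are not given in the sources used here. The deposited table holds raw counts per gene symbol. The deposited RPKM table was not used.

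Counts were tested in R 4.3.3 with edgeR 4.0.16 (quasi-likelihood, robust, two-sided, TMM factors). Low-count filtering by group (minimum count 10, minimum total 15) left 16074 genes. The model held group, batch and labelled sex for all 29 libraries, with 20 residual degrees of freedom and Benjamini-Hochberg adjustment over all genes at 0.05. Log2 changes carry their standard error. A prior count of 2 was used in the log2 values and log2 ratios of single libraries. The TRAP, 5xFAD TRAP and iPKR ASV libraries each enter several comparisons, which therefore share samples. The lowest chi-square per degree of freedom between libraries of a group was 3.98, so none was a copy of another. Labels do not say more about replicates than that they are separate samples, and p-values measure the spread between these samples. No molecular identifiers were counted, so the floor of 3 counts covers counting error only.

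Exon lengths and positions came from GENCODE M21 (mm10), and promoters from RefSeq (GRCm38.p6). The genes named were the 4 members, Csf1, up to 3 called genes of each pathway list and direction by smallest p, and the 5 genes of most similar pattern, some of which are not reported here. Adam10, Adam17, Gnb1, Pik3r1 and Shc1 were singled out after their values were seen. Members and lists were chosen with earlier results of these data known. Alternatives were RLE size factors, no low-count filter, no batch or sex term, batch 1 alone, the 4 groups without iPKR, only the groups compared, a replicate block, DESeq2 1.42.0, a prior count of 0.5 in ratios and each library left out. Added after seeing the data were batch 2 alone, sex from Y-linked reads, and leaving out the 3 neuron-rich libraries or the 2 with little Cx3cr1. The procedure was tested on simulated data.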

Additional observations from a re-analysis of the deposited data

Results flagged for a closer look

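Values were checked for a library far from the rest of its group, where the gap to its nearest neighbour exceeded Dixon's 95% value for the group's range, in 54 groups of 4 or 5 values. Chance marks about 1 in 20 such groups.

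All the values so marked came from 3 libraries. In TRAP replicate 2 Cx3cr1 stood at 16.97 CPM, Csf1 at 1.996 CPM, the log2 ratio of Cx3cr1 to Cx3cl1 at -1.65 and that of Cx3cr1 to Csf1r at -6.97. In iPKR vehicle replicate 1, with 0 Cx3cr1 counts and a prior count added, the log2 ratio of Cx3cr1 to Cx3cl1 was -10.18 and that of Cx3cr1 to Csf1r -8.57. In iPKR ASV replicate 3 Cx3cl1 stood at 1181 CPM, and the log2 ratios were -6.76 for Cx3cr1 to Cx3cl1, -4.11 for Cx3cr1 to Csf1r and -5.99 for Il34 to Cx3cl1. The causes were not tested.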

How the results depend on the processing

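Of the 32 pairwise results of the 4 genes, 9 were called, and 8 of these kept the call under every alternative run. Csf1r in 5xFAD iPKR against iPKR ASV lost it in batch 2 alone (1.45) and with only the groups compared (1.22), and in all 170 of 172 alternatives of called results kept it. Ratios moved by less than 1 SD with a prior count of 0.5. The cause of each change below was not tested, beyond fewer libraries where libraries were left out. Low counts limit single values, with 0 for Cx3cr1 in iPKR vehicle replicate 1 and 13 for Il34 in 5xFAD TRAP replicate 1.

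Results that were not called changed sign or crossed the threshold as follows (log2). Without a low-count filter Csf1r was -0.003 in 5xFAD TRAP against TRAP and 0.0256 in 5xFAD Eif2A against 5xFAD TRAP. Without batch and sex, Il34 was -0.61 in 5xFAD Eif2A against 5xFAD TRAP, Cx3cl1 0.26 in iPKR ASV against iPKR vehicle, and Cx3cr1 -0.0404 and Il34 -0.18 in the Eif2A minus TRAP difference of 5xFAD. In batch 1 alone, 5xFAD iPKR against iPKR ASV gave Il34 -0.0609 and Cx3cl1 2.06, 5xFAD Eif2A against 5xFAD TRAP gave Cx3cr1 -0.0655, ASV against vehicle gave Cx3cl1 0.61 and the Eif2A minus TRAP difference gave Cx3cr1 -0.19. In batch 2 alone Cx3cl1 was -0.30 in 5xFAD iPKR against iPKR ASV. In the 4 groups without iPKR, 5xFAD Eif2A against 5xFAD TRAP gave Csf1r 0.0134 and Cx3cl1 -1.28. With only the groups compared it gave Cx3cr1 -0.10 and Cx3cl1 -1.68, and 5xFAD TRAP against TRAP gave Cx3cl1 0.97. The Eif2A minus TRAP difference of Cx3cr1 was -0.044 in both of those fits and -0.0357 without the 3 neuron-rich libraries. The replicate numbers did not pair the libraries (mean correlation 0.008 between equal numbers, with 7 of 79 pairs over 0.1), and the replicate block turned the Cx3cr1 difference to -0.0255. DESeq2 gave the iPKR minus TRAP difference of Csf1r as 1.43. Without the 3 neuron-rich libraries that was 1.60, with Cx3cl1 at -0.95 in it, -0.12 for Cx3cl1 in 5xFAD iPKR against iPKR ASV and -0.0156 for Il34 in 5xFAD Eif2A against 5xFAD TRAP. With sex from Y-linked reads Csf1r was -0.0812 in 5xFAD TRAP against TRAP, 0.16 in 5xFAD Eif2A against 5xFAD TRAP and 1.76 in the iPKR minus TRAP difference, and Cx3cl1 was 0.0118 in ASV against vehicle. Without the 2 libraries low in Cx3cr1, Cx3cr1 was -0.11 in 5xFAD TRAP against TRAP and -0.15 in Eif2A against TRAP.

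Leaving out each library gave ranges of -0.0071 to 0.17 for Csf1r and -0.0626 to 0.41 for Cx3cr1 in 5xFAD TRAP against TRAP, and -0.15 to 0.38 for Cx3cr1 and -0.30 to 0.0498 for Il34 in Eif2A against TRAP. They were -0.17 to 0.36 for Cx3cr1 in the Eif2A minus TRAP difference, and 1.26 to 1.67 for Csf1r and -0.38 to 0.94 for Cx3cl1 in the iPKR minus TRAP difference. In 5xFAD Eif2A against 5xFAD TRAP they were -0.0888 to 0.0803 for Csf1r, -0.0179 to 0.47 for Cx3cr1 and -0.0627 to 0.25 for Il34. For Cx3cl1 they were -0.0292 to 0.69 in 5xFAD Eif2A against Eif2A, -0.44 to 0.15 in ASV against vehicle and 0.68 to 1.84 in 5xFAD iPKR against iPKR ASV, where Il34 gave -0.11 to 0.12.

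Counts of changed genes moved more. For 5xFAD TRAP against TRAP (127) they were 75 without batch and sex, 958 in the 4 groups without iPKR, 749 with only the groups compared, 76 with the replicate block, 339 with DESeq2, 249 without the neuron-rich libraries and 53 to 122 with a library left out. For 5xFAD Eif2A against Eif2A (499) the same gave 308, 2090, 1664, 1034 with DESeq2, 898 without the neuron-rich libraries and 222 to 419. For 5xFAD iPKR against iPKR ASV (277) batch 1 gave 454, batch 2 47, only the groups 10, the replicate block 135, DESeq2 674, no neuron-rich libraries 739 and leaving out a library 172 to 542. For Eif2A against TRAP (0) the 4 groups gave 272, DESeq2 41 and leaving out a library 0 to 1. For 5xFAD Eif2A against 5xFAD TRAP (27) RLE gave 15, no filter 12, no batch or sex 0, the 4 groups 586, only the groups 1095, the replicate block 4, DESeq2 275, no neuron-rich libraries 94, sex from reads 8, no low-Cx3cr1 libraries 12 and leaving out a library 2 to 8. For ASV against vehicle (68) no filter gave 32, no batch or sex 26, batch 1 314, batch 2 3, only the groups 0, the replicate block 5, DESeq2 525, no neuron-rich libraries 284, sex from reads 14, no low-Cx3cr1 libraries 29 and leaving out a library 10 to 179. Batch 2 gave 4176 for 5xFAD iPKR against 5xFAD TRAP (7704), and leaving out a library 6881 to 7402 there and 8081 to 8543 for iPKR vehicle against TRAP (8695). The Eif2A minus TRAP difference (1) gave 0 without batch and sex, 2 in batch 1, 42 in the 4 groups and in only those compared, 83 with DESeq2, 3 without the neuron-rich libraries and with sex from reads, and 0 to 3. The iPKR minus TRAP difference (6) gave 3 with only the groups compared, 118 with DESeq2, 281 without the neuron-rich libraries, 12 with sex from reads and 0 to 103. With RLE the share of higher calls was 56.8% against 66.9% in 5xFAD Eif2A against Eif2A and 40% against 25.9% in 5xFAD Eif2A against 5xFAD TRAP.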
